A study of Caenorhabditis elegans with 2 samples.

Results

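The 7 genes described here, daf-16, skn-1, hlh-30, crh-1, hsf-1, pha-4 and pqm-1, encode transcription factors of longevity and stress responses in the nematode Caenorhabditis elegans, and are 7 of 19973 nuclear protein-coding genes in the WBcel235 annotation. They were chosen by name with the signal ranks, positions and replicate overlap of their regions in these data already known, so those values are given as a description, with no test. Chromatin bound by UNC-62 was immunoprecipitated from whole worms at the L4 larval stage, mixed in sex, and sequenced (ChIP-seq) in 2 biological replicates of 1 group. The strain, OP600, carries unc119(ed3) and an integrated transgene, wgIs600, that expresses UNC-62 with a C-terminal tag of TY1, EGFP and FLAG together with a normal copy of unc119. Both samples share this genotype and come from that single transgenic line, so there is no group without the tag to compare them with, and reads of a control were not analysed here. The antibody is listed as unc-62, which does not say whether the protein or the tag was bound, and whole worms give 1 value for all tissues together.

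UNC-62 is a homeodomain protein of the Meis and Homothorax class, which binds DNA alone or with Pbx and Hox partners, with TGACAG as its core word. In worms it acts in embryonic patterning and in the adult intestine, and reducing it in adults lengthens life. Of the 7 genes, daf-16 encodes the FOXO factor held out of the nucleus by insulin-like signalling, pqm-1 a zinc finger factor that works opposite to DAF-16 at shared stress and growth genes, and hlh-30 the TFEB factor of autophagy and lysosomes. skn-1 encodes the Nrf factor of oxidative and xenobiotic defence, crh-1 the CREB factor, hsf-1 the heat shock factor, and pha-4 the FoxA factor of pharynx development and of longevity under dietary restriction.

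For each gene the window was its body with the 5000 bp upstream of any transcript start, and a region belonged to the gene when its summit lay there. The pooled list, made from both replicates, held 4849 regions, the replicate 1 list 18114 and the replicate 2 list 20477, all with background regions included. The thresholded list, which the authors derived by the irreproducible discovery rate (IDR), held 197, which were pooled ranks 1 to 197, and 176 of these lay on nuclear chromosomes. Rank 1 is the region of highest signal in its list. Signal is the authors' value per region, on a scale that differs between lists, and the q-value is that of their caller. The files hold no read counts, so the depth is unknown, and 2 replicates of 1 group allow no test between conditions.

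The windows held 1 thresholded region, at daf-16, and 26 pooled regions, at daf-16, hlh-30, crh-1, skn-1 and pqm-1. hsf-1 and pha-4 had none in the pooled list. Thus 1 of the 7 genes had a thresholded summit, against 1.41% of all nuclear protein-coding genes, and 5 of 7 had a pooled summit, against 29.1%. A pooled region overlapped by at least 1 bp in both replicate lists was found at the same 5 genes, against 17.8%. A pooled summit of q 0.05 or less was found at daf-16 and pqm-1, against 2.61%. These shares are not of like genes, since the members' windows had a median length of 14.6 kb and those of all coding genes 7.03 kb. The members were also chosen with these values known.

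**Figure D1:**
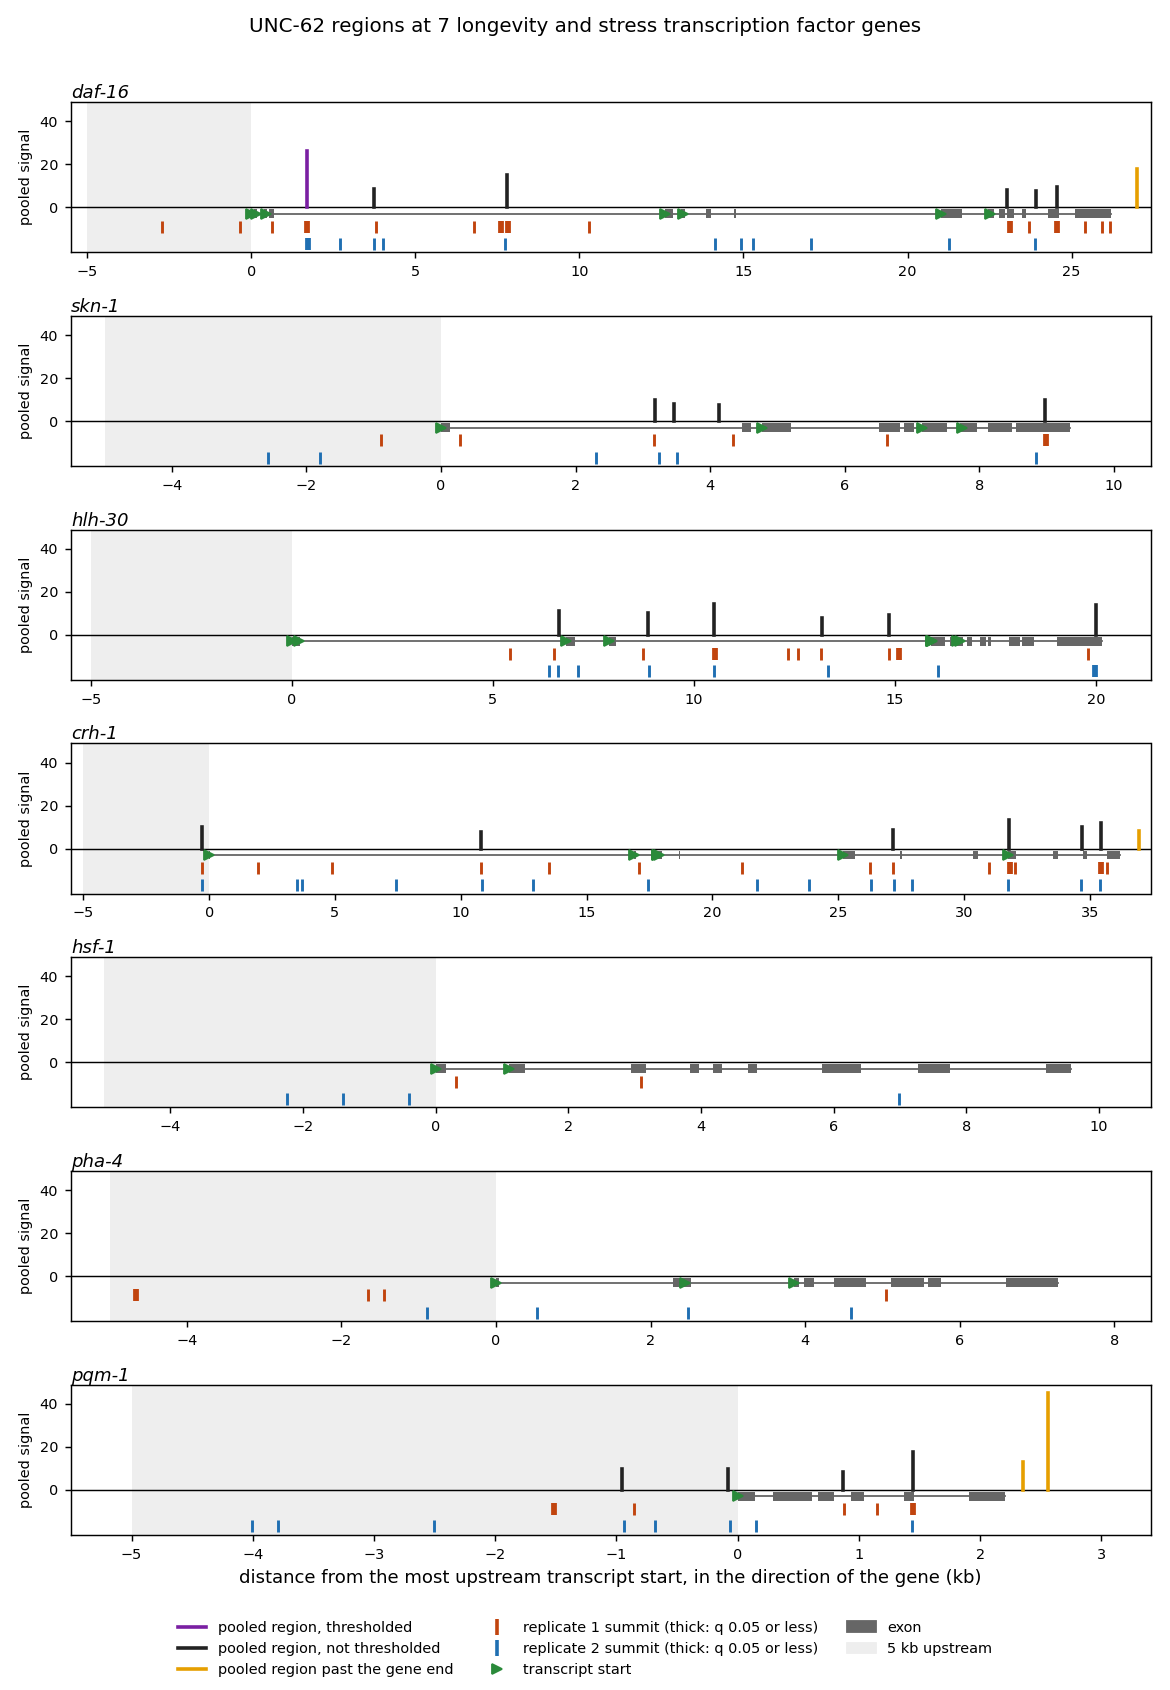
Regions along the 7 genes, in kb from the most upstream transcript start in the direction of each gene. Vertical lines give the signal of pooled regions, ticks the summits of replicate 1 (upper row) and replicate 2 (lower row), thick where q was 0.05 or less. daf-16 has the only thresholded region inside a window, hsf-1 and pha-4 have no pooled region, and the highest line, of signal 45.2, lies past the 3′ end of pqm-1.

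daf-16 (WBGene00000912, chromosome I, 10750498 to 10776703, plus strand) had the highest region of the set. It spanned 10752000 to 10752415 with a pooled signal of 26.1, q = 0.0381 and rank 101. Its summit lay in an intron of 5 of the 11 annotated transcripts, those that begin furthest upstream, and 1248 bp downstream of the nearest daf-16 start. Replicate 1 listed the region at rank 282 (signal 8.37, q = 0.00888) and replicate 2 at rank 120 (signal 15.8, q = 0.0131), with summits 1 and 25 bp from the pooled one. It was the only pooled region of the set with q of 0.05 or less in both replicates. TGACAG occurred there on the minus strand at 2 places, 1 to 6 bp and 58 to 63 bp from the summit.

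The regions beside it by pooled rank lay near the starts of srlf-7, 238 bp upstream (rank 100, signal 26.1), and praf-3, 190 bp downstream (rank 102). Their replicate ranks were 669 and 81 for the srlf-7 region, and 26 and 1130 for the praf-3 region. The daf-16 region was thus the most evenly ranked of these 3 neighbours.

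The next daf-16 region lay 7784 bp into the gene, in the same long intron and 4821 bp upstream of the start shared by the b and c transcripts. It had signal 14.9, q = 0.102 and rank 476 in the pool. Replicate 1 listed it in 2 overlapping regions at ranks 417 (q = 0.0108) and 1421 (q = 0.044), whereas replicate 2 had it at rank 1756 (q = 0.213). TGACAG occurred once, 64 to 69 bp from the summit. One more region of that intron, 3745 bp into the gene, ranked 2983 in the pool, 14345 in replicate 1 and 3319 in replicate 2, and its signal of 8.69 was close to the bottom of the pooled list at 7.59.

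The 3 other daf-16 regions lay together near the 3′ end, in coding exons (ranks 2184 and 4078) and in an intron (rank 4659). The exonic regions were listed by replicate 1 at ranks 629 (q = 0.0199) and 874 (q = 0.0234) and overlapped no region of replicate 2. The intronic one ranked 11121 in replicate 1 and 10441 in replicate 2. Of the 3 regions near the 3′ end, 2 were thus listed by replicate 1 alone, and all 3 in the long intron near the 5′ end by both replicates. Both replicates overlapped 4 of the 6 daf-16 pooled regions, against 57.9% of all nuclear pooled regions. A further region 798 bp past the gene end, described below, was also listed by both.

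pqm-1 (WBGene00004096, chromosome II, 11150391 to 11152595, minus strand) is the shortest of the 7 genes, with 1 annotated transcript, and had 4 pooled regions. The highest, 11150942 to 11151357, had its summit in a coding exon, 1445 bp into the gene. It had a pooled signal of 17.4, q = 0.0429 and rank 315, outside the thresholded list. Replicate 1 placed it at rank 124 (signal 10.7, q = 0.0022), the best rank of any member region in that list, and replicate 2 at rank 3339 (signal 5.89, q = 0.402). The summits lay 0 and 5 bp from the pooled one, so the replicates shared the position and not the rank. It is shown because it is the highest region inside the window at pqm-1 and holds CTTATCA, the word bound by PQM-1 itself, once on each strand (52 to 58 and 44 to 50 bp from the summit), and CACGTG, the E-box word of HLH-30, on the other side of the summit. The 201 bases centred on its summit follow from the plus strand, 5′ to 3′, with those words in capitals (WBcel235, chrII:11151050-11151250).
pqm-1 region 1: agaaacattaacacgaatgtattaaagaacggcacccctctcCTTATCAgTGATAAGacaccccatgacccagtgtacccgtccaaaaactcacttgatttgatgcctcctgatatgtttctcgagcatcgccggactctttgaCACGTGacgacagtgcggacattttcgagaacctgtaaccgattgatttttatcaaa

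The other pqm-1 regions were lower. One lay 957 bp upstream of the start, with ranks 1940 in the pool, 11369 in replicate 1 and 2349 in replicate 2, and held CTTATCA 8 to 14 bp from its summit. One lay 79 bp upstream of the start, at rank 1957, and overlapped a region of replicate 2 (rank 1715, q = 0.207) and none of replicate 1. The last, in an intron 865 bp into the gene, ranked 3394 and overlapped regions of replicate 1 alone (best rank 6437). A replicate 1 region 1518 bp upstream of the start, at rank 886 with q = 0.0243, overlapped no pooled region. The region nearest the pqm-1 start was thus listed by replicate 2 and not by replicate 1, and the exonic region ranked far higher in replicate 1.

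A stronger region lay just past the 3′ end of pqm-1, outside its window. This thresholded region, 11149831 to 11150246, had its summit 352 bp beyond the gene end, in a coding exon of arrd-6, a convergent gene whose annotated 3′ end abuts that of pqm-1. It ranked 25 in the pool (signal 45.2), 23 in replicate 1 (signal 17.4, q = 0.0022) and 37 in replicate 2 (signal 28.7, q = 0.0131), and held none of the 7 words searched within 100 bp of its summit. A second pooled region 153 bp past the gene end, in the arrd-6 3′ UTR, overlapped this one and ranked 713, and replicate 2 placed its own summit there at rank 200. With 5000 bp past the gene end also counted, 2 of the 7 genes had a thresholded summit, against 2.28% of coding genes.

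The same reach added a daf-16 region 798 bp past the gene end, with no other gene at its summit. It ranked 302 in the pool (signal 17.7, q = 0.0415), 815 in replicate 1 (q = 0.0227) and 233 in replicate 2 (q = 0.0151), so that q was under 0.05 in all 3 lists. On the upstream side, the nearest pooled region past a window edge lay 213 bp out at pqm-1 (rank 3319, with ptr-13 as the nearest start) and 986 bp out at skn-1 (rank 1670, with bec-1 as the nearest start), and from 5850 bp to 71854 bp out at the other genes. At the edge of the thresholded list, rank 197 had a signal of 20.61 and rank 198 one of 20.59.

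hlh-30 (WBGene00020930, chromosome IV, 4014793 to 4034951, minus strand) has 13 transcripts from 10 starts, and had 6 pooled regions with ranks of 537 to 4683. The highest, 4024253 to 4024668, lay in an intron of 7 transcripts, 2602 bp from the nearest hlh-30 start, with signal 14.3 and q = 0.12. Replicate 1 placed it at rank 300 (signal 8.17, q = 0.0117) and replicate 2 at rank 5678 (signal 4.99, q = 0.567). The second, 4014742 to 4015157, lay in the 3′ UTR with signal 13.8, q = 0.156 and rank 605. Here the order was turned round, with rank 6247 in replicate 1 (q = 0.279) and rank 367 in replicate 2 (signal 10.9, q = 0.0177). Each of the top regions at hlh-30 thus stood high in 1 replicate and low in the other.

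The remaining hlh-30 regions lay in its long introns. One lay 176 bp upstream of the start of the b and c transcripts (pooled rank 1205, replicate ranks 4865 and 2995) and was the richest in G and C of the 26, at 60.2% of 201 bases, against a median of 36.8% over all nuclear pooled regions. Another lay 982 bp downstream of the start of the d and e transcripts (rank 1832, replicate ranks 3923 and 2872) and held CACGTG 2 to 7 bp from its summit. CACGTG is the E-box core bound by HLH-30 itself. The lowest 2, at ranks 2294 and 4683, lay 1046 and 2711 bp upstream of the nearest start. Replicate 1 alone overlapped the first of these (best rank 1115, q = 0.0363), and both replicates the second (ranks 3412 and 3843).

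The sequences below are those of the highest hlh-30 region, in which GTAAACA, the word bound by DAF-16, begins 82 bp from the summit, and of the intronic region with the E-box. Each gives 201 bases centred on the summit, plus strand, 5′ to 3′, with the words in capitals (WBcel235, chrIV:4024361-4024561 and chrIV:4025981-4026181).
hlh-30 region 1: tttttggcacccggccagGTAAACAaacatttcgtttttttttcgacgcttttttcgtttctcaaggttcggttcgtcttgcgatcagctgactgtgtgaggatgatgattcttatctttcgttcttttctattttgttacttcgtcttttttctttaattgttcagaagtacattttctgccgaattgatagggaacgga
hlh-30 region 4: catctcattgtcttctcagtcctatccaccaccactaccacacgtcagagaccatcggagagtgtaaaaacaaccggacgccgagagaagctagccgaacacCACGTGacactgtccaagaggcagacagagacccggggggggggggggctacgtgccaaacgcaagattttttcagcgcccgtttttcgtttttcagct

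crh-1 (WBGene00000793, chromosome III, 11657767 to 11693981, plus strand) is the longest of the 7 genes, with 7 transcripts from 7 starts, and had 6 pooled regions. The highest, 11689363 to 11689778, had its summit 59 bp downstream of the start of the short f transcript, with signal 13.2, q = 0.187 and rank 697. Replicate 1 placed it at rank 688 (q = 0.0225) and replicate 2 at rank 5362 (signal 5.08, q = 0.563). The second, in an intron near the 3′ end, had pooled rank 1026, rank 691 in replicate 1 (q = 0.0224) and rank 9690 in replicate 2 (q = 0.764). It was the poorest in G and C of the 26, at 21.9%, and its nearest coding start was that of the neighbour Y41C4A.22. A neighbouring intronic region ranked 1801 in the pool and 1219 in replicate 2 (q = 0.149), and overlapped none of replicate 1.

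The start of the longest crh-1 transcript had a region 297 bp upstream, at pooled rank 1745, with summits at offsets of 3 and 0 bp in the replicates and ranks of 6895 and 3987. Its signals in the replicates, 3.30 and 5.59, were low in both lists (q = 0.348 and 0.445). An intronic region 2002 bp downstream of the start of the g transcript ranked 2790, and one 10808 bp into the gene ranked 4746, with replicate summits within 20 bp of the pooled one in each case. Positions were therefore shared at these pooled regions although their replicate ranks were low. This did not hold for all listed crh-1 regions. In its window, 9 of the 14 replicate 1 regions overlapped the other list, against 28.1% of all nuclear replicate 1 regions. For replicate 2 it was 7 of 15, against 25.7%. Some of these crh-1 regions overlap one another within a list, so they are not all separate sites.

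TGACGTCA, the full cyclic AMP response element that CREB proteins bind, occurred in 3 of the 6 crh-1 regions, at 4 places, and in none of the other 20 member regions. Over all 4828 nuclear pooled regions it was present in 1.18%. It lay 19 to 26 bp from the summit at the f start, 14 to 21 bp from the summit at the c start, and 27 to 34 and 41 to 48 bp from the summit of the intronic region. The word reads the same on both strands. At the c start it overlaps CACGTG by 2 bases. The sites are shown side by side with 10 bases on each flank, plus strand, 5′ to 3′, with TGACGTCA in capitals (WBcel235, chrIII:11689580-11689607, chrIII:11657474-11657501, chrIII:11684920-11684947 and chrIII:11684995-11685022).
crh-1 f start: cgacaggaatTGACGTCActttttttct
crh-1 c start: tttttgcacgTGACGTCAacactttccc
crh-1 intron, first site: ttgtacctgaTGACGTCActgatcattt
crh-1 intron, second site: gccaccccgcTGACGTCAtagtttactc

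skn-1 (WBGene00004804, chromosome IV, 5651039 to 5660384, minus strand) had 4 pooled regions and no strong one. The highest, 5657001 to 5657416, lay in an intron of the longest transcript, 1604 bp upstream of the c start, with signal 9.78, q = 0.616 and rank 1958. It overlapped another, at rank 4538, and both overlapped the same replicate regions, of rank 3977 in replicate 1 and best rank 2450 in replicate 2. They are therefore not separate observations. A region 640 bp upstream of the c start ranked 4687 and was overlapped in replicate 1 alone (rank 5674). The region in the 3′ UTR ranked 2023 in the pool, 1334 in replicate 1 (signal 5.48, q = 0.0378) and 5527 in replicate 2 (signal 5.03, q = 0.566), and was the only one at skn-1 with a q under 0.05 in any list.

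hsf-1 (WBGene00002004, chromosome I, 11953507 to 11963085, minus strand) and pha-4 (WBGene00004013, chromosome V, 20753052 to 20760317, plus strand) had regions in the replicate lists alone, and no region of one replicate overlapped one of the other. Over the nuclear genome, 28.1% of replicate 1 regions and 25.7% of replicate 2 regions overlapped the other list, so most did not. At hsf-1, replicate 1 listed 2 regions, the better one in a coding exon 3104 bp into the gene at rank 1640 (signal 5.19, q = 0.0522). Replicate 2 listed 4, the best 2247 bp upstream of the start at rank 2523 (signal 6.36, q = 0.315). At pha-4, replicate 1 listed 4, the best 4659 bp upstream of the start at rank 1446 (signal 5.35, q = 0.0474), and replicate 2 listed 4, the best in a coding exon at rank 5331 (signal 5.10, q = 0.563). The nearest pooled region to the hsf-1 window lay 19896 bp past its downstream edge (rank 1903). For pha-4 it lay 10735 bp past the downstream edge, 891 bp upstream of elp-1 (rank 360, q = 0.0515).

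**Figure D2:**
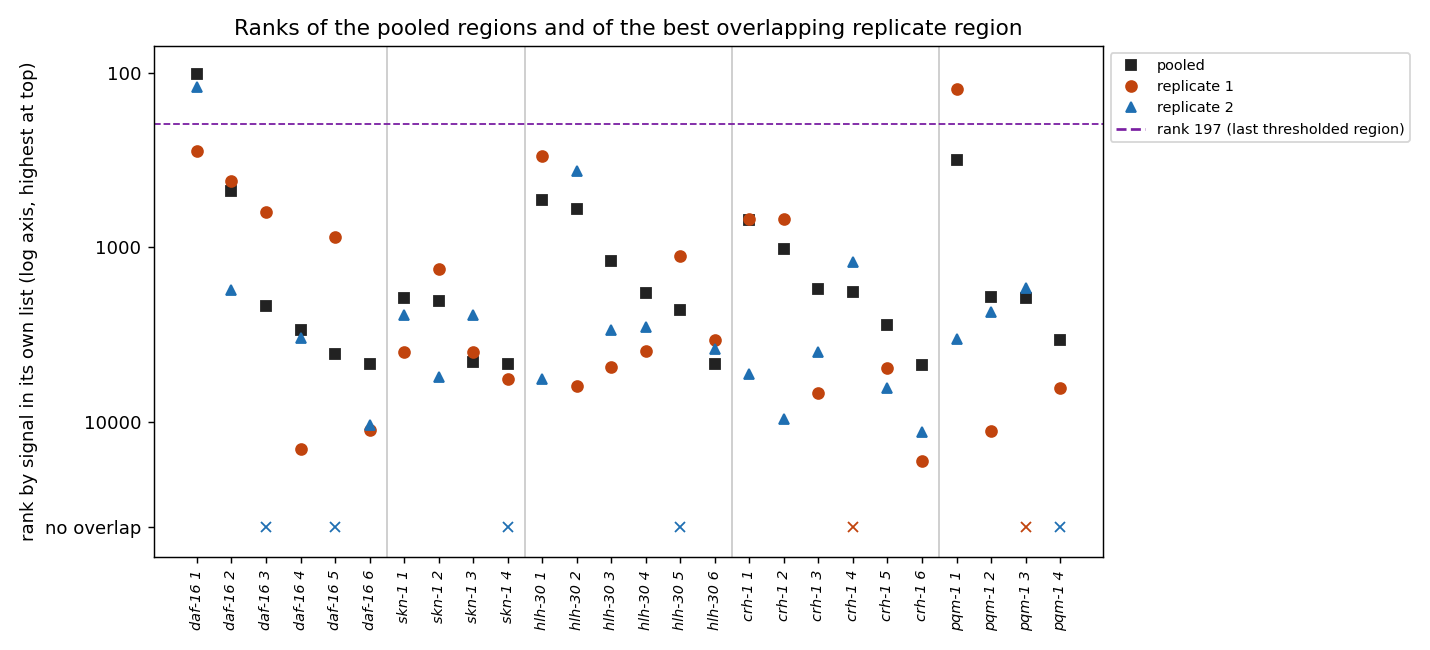
Rank by signal of each of the 26 pooled regions in the pooled list (squares), with the best rank of an overlapping region in replicate 1 (circles) and replicate 2 (triangles), on a log axis with the highest rank at the top. Regions are numbered within a gene by pooled rank, crosses mark a list with no overlapping region, and the dashed line is rank 197. Among the squares, the first daf-16 region alone is above the line, and the first pqm-1 region is above it in replicate 1.

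Across the 26 pooled regions, 24 overlapped a region of replicate 1, 21 a region of replicate 2 and 19 both, against 57.9% of all nuclear pooled regions in both. Of the 19, 8 had the better rank in replicate 1 and 11 in replicate 2. The best overlapping region had q of 0.05 or less in replicate 1 for 10 of the 26 and in replicate 2 for 2. Of all nuclear regions in those lists, 8.4% and 2.83% had such a q. Those are shares of replicate regions and not of pooled ones, so they are no background for the 10 and the 2. The share over all nuclear pooled regions is not given here for these counts, nor for the 24 and 21. The median distance of the best overlapping region's summit from the pooled summit was 39 bp in replicate 1 and 21 bp in replicate 2. In the pool itself 2 of the 26 (7.69%) had q of 0.05 or less, against 6.86% of all nuclear pooled regions, a share close to the background.

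Each replicate list held 56 regions in the windows, and in each list 24 of them overlapped the other replicate (42.9%). Over the nuclear genome the share was 28.1% of replicate 1 regions and 25.7% of replicate 2 regions. In replicate 1, 13 of the 56 (23.2%) had q of 0.05 or less, against 8.4%, and they lay at 6 of the 7 genes, all but hsf-1, against 10.8% of coding genes. In replicate 2, 2 of the 56 (3.57%) did, against 2.83%, at daf-16 and hlh-30, against 4.51% of coding genes. The share of regions with a low q was thus well above the background in replicate 1 and close to it in replicate 2. The share of genes, 6 of 7 and 2 of 7, was above the background in both lists. The members were chosen with these values known, and their windows had a longer median length than those of all coding genes. The median rank of their regions was 6618 in replicate 1 and 6520 in replicate 2, against 9058 and 10250 over the nuclear regions of those lists.

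The genes also differed in the lowest q-value found anywhere in the window. daf-16 reached 0.0381 in the pool, 0.00888 in replicate 1 and 0.0131 in replicate 2, below 0.05 in all 3 lists. pqm-1 reached 0.0429 in the pool and 0.0022 in replicate 1, but 0.207 in replicate 2. hlh-30 reached 0.0117 and 0.0177 in the replicates, at different regions, but 0.12 in the pool. crh-1, skn-1 and pha-4 were under 0.05 in replicate 1 alone, at 0.0224, 0.0378 and 0.0474, and hsf-1 in no list, its lowest being 0.0522 in replicate 1. The low q-values repeat within a list and do not order the regions that share them. Regions at pooled ranks 25 and 260 both had q = 0.0381. Replicate 1 ranks 14 and 191 both had q = 0.0022, and replicate 2 ranks 37 and 192 both had q = 0.0131.

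**Figure D3:**
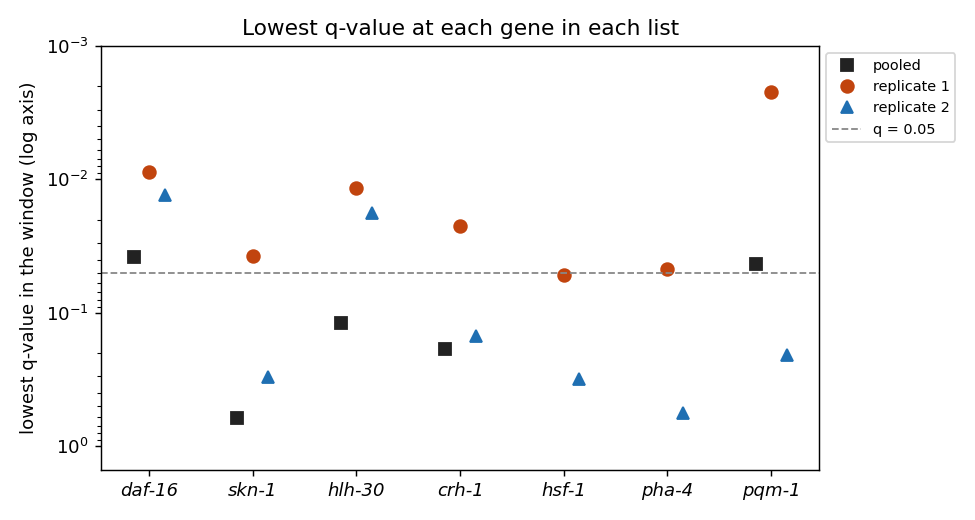
Lowest q-value of any region in the window of each gene, in the pooled list (squares), replicate 1 (circles) and replicate 2 (triangles), on a log axis with low values at the top and q = 0.05 dashed. daf-16 is above the line in all 3 lists, and hsf-1 and pha-4 have no pooled point.

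The number of regions per kb allowed for the length of the windows. The comparison was with the whole nuclear genome, not with the windows of other genes, and the members were chosen with these values known. The members' 146 kb held 0.178 pooled summits per kb, against 0.0481 per kb over the nuclear genome, a ratio of 3.70. For replicate 1 the density was 0.384 per kb against 0.181 (ratio 2.12), and for replicate 2 it was 0.384 against 0.204 (ratio 1.88). pqm-1 was the densest, with 0.555 pooled summits per kb, 0.694 in replicate 1 and 1.11 in replicate 2. skn-1 followed in the pool at 0.279, then hlh-30 at 0.238, daf-16 at 0.192 and crh-1 at 0.146. The skn-1 value counts both of its overlapping pooled regions, which are not separate observations, and its place before hlh-30 depends on that. With counts of 4 to 6 regions per gene, this order is a description. The pooled regions of pqm-1 did not overlap one another. Its replicate values count regions that overlap within the same list, and its first place in replicate 1 depends on that.

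**Figure D4:**
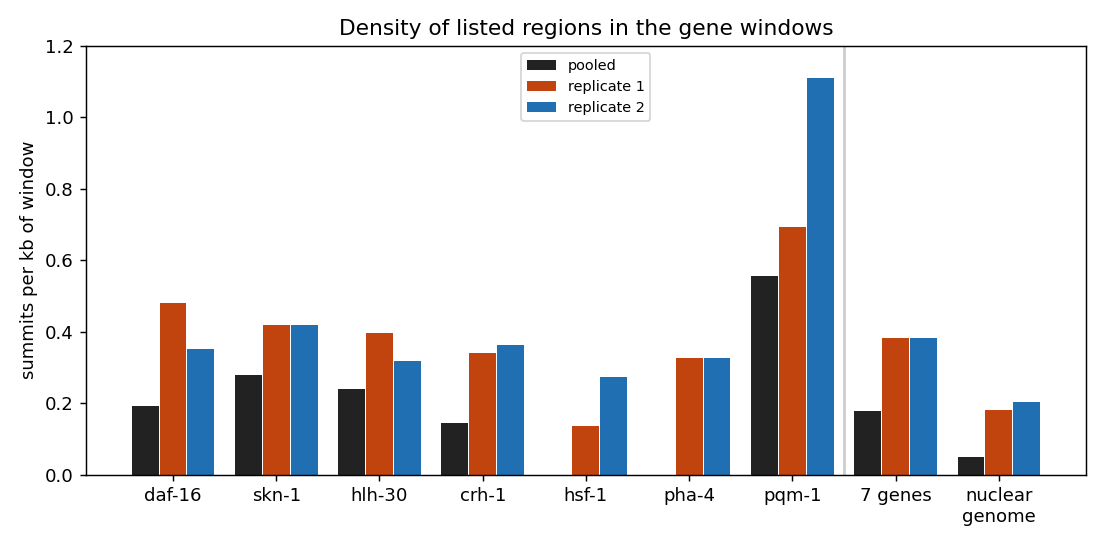
Summits per kb of window at each gene, over the 7 genes together and over the nuclear genome, for the pooled, replicate 1 and replicate 2 lists. pqm-1 has the highest bars, and hsf-1 and pha-4 have none for the pool.

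Most of the pooled regions were intronic. Introns made up 50.1% of the windows, and held 46.4% of the replicate 1 summits and 53.6% of the replicate 2 summits there. Of the 26 pooled summits, 15 lay in introns (57.7%). The start windows, from 1000 bp upstream to 500 bp downstream of a transcript start, held 6 (23.1%) and made up 23.3% of the length. Coding exons held 3 (11.5% against 4.40% of length) and 3′ UTRs 2 (7.69%). Outside the gene bodies, no pooled summit lay in the upstream stretch beyond the start windows, which was 19.2% of the length, while replicate 1 had 5 summits there and replicate 2 had 7. Pooled summits further than 1000 bp upstream of an inner start lay inside the gene body and were counted as intronic. None of the 34 annotated starts had a thresholded summit in its start window. Of the 26 summits, 24 had a start of their own gene as the nearest coding start, the other 2 being those of crh-1 near Y41C4A.22.

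TGACAG was found within 100 bp of the summit, on either strand, in 3 of the 26 member regions (11.5%), at daf-16 in 2 and pqm-1 in 1. The share was 9.61% of the 4828 nuclear pooled regions and 26.7% of the 176 nuclear thresholded regions. CTTATCA, also a GATA-type word, was in 2 (7.69% against 10.9% of nuclear pooled regions), CACGTG in 3 (11.5% against 6.01%), GTAAACA in 1 (3.85% against 3.62%) and GAANNTTC, the paired heat shock word, in 3 (11.5% against 12.5%). The composite TGATTGACA was in 0 of 26, and in 0.704% of nuclear pooled regions. TGACGTCA and CACGTG were thus more frequent than in the pooled list at large. The others were close to it or below, and all counts were of 3 regions or fewer. In the nuclear thresholded regions, CTTATCA was as frequent as TGACAG, at 26.7%, and CACGTG was at 11.4%. A match describes the letters and is not in itself a bound site.

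Genes around these factors were read in the same windows. Of 20 other stress and longevity transcription factors, 1 had a thresholded summit (5%), as did 1 of 28 signalling and partner genes (3.57%) and 1 of 25 target genes (4%), against 1.41% of all coding genes. zip-2, a bZIP factor of the pathogen response, had a region 184 bp upstream of a start (signal 22.8, pooled rank 146, ranks 325 and 129 in replicates 1 and 2). ftt-2, a 14-3-3 protein that binds DAF-16, had one 629 bp upstream (signal 34.8, rank 45, replicate ranks 93 and 74). icl-1, the glyoxylate cycle enzyme, had one 3489 bp upstream (signal 34.8, rank 46, replicate ranks 14 and 126), but this summit lay 84 bp downstream of the start of srh-2. The thresholded regions of ftt-2 and zip-2 thus lay in a start window of their own gene, and that of daf-16 did not.

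At q of 0.05 or less in the pool, the counts were 3 of 20 (ets-4, zip-2 and egl-27), 2 of 28 (ftt-2 and pptr-1) and 2 of 25 (lgg-1 and icl-1), which is 15%, 7.14% and 8% of the lists, against 2.61% of all coding genes. egl-27, a GATA-domain co-regulator of stress and ageing, ranked 206 in the pool, just under the thresholded list, with replicate ranks of 242 and 112 and TGACAG near its summit. lgg-1, the Atg8 protein of autophagosomes, ranked 233 with replicate ranks of 1010 and 141, its summit 915 bp upstream. pptr-1, a phosphatase subunit acting on AKT-1, ranked 297 with replicate ranks of 614 and 843. ets-4, an ETS factor whose loss lengthens life, ranked 336, with ranks of 10277 in replicate 1 and 427 in replicate 2. A pooled region of any q lay at 15 of 20 (75%), 20 of 28 (71.4%) and 9 of 25 genes (36%), against 29.1% of all coding genes, so that the share of target genes was near the background. The median windows of the 3 lists were 9.31, 11.9 and 6.79 kb long, against 7.03 kb over all coding genes. The part of window length in these shares was not tested.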

How the data were processed

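Peak lists for build ce11 were used, from 2 biological replicates. Per the file headers, the authors made 1 list per replicate from its alignments and a further input file, 1 from both replicates with that input, and the thresholded list from these. The labels name a possible control, without saying that it was this input. Not given in the sources used here: aligner, peak caller and threshold. The authors deposited a signal value per region and the −log10 of its q-value, which was turned into q. Genes came from Ensembl release 115 on WBcel235 (7 of 7 symbols matched) and sequence from the RefSeq copy of that assembly, within whose chromosomes every ce11 region lay. The ce10 lists were not used here. Summits were assigned with Python 3.11.15 and pandas 2.3.3, and the assignment was tested on simulated data. No read counts were used, so the depth is unknown. Figures were drawn with matplotlib 3.10.9. Positions are 1-based. Members, lists, words and context genes were chosen with earlier results of these data known. Named genes are the members, context genes with a thresholded or q 0.05 region, rank neighbours and nearest starts.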

Additional observations from a re-analysis of the deposited data

How the results depend on the processing

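Of 33 alternatives to 5 counts, 21 stayed within 1.5 times the reported value. Of the 7 members, 1 had a thresholded summit. The longest transcript alone, or the thresholded regions above the list's median signal, gave 0. Pooled q of 0.05 or less gave 2 (daf-16 and pqm-1), as did counting 5000 bp downstream too, a reach chosen after seeing the data. With the highest 197 regions of a single replicate the count was 1 in each case, at daf-16 without replicate 1 and at pqm-1 without replicate 2, so the gene depended on the replicate. The 26 pooled summits became 2 at q of 0.05 or less, and 21 to 22 in as many top regions of a single replicate list. The 5 members with a region in both replicates became 1, daf-16, where the replicate regions had to have q of 0.05 or less. TGACAG was in 3 of the 26 member regions as reported, in 1 within 50 bp and in 5 anywhere in the region. It was in 5 of 56 regions of each single replicate list, judged here by count although the number of regions rose too. The 3 context genes with a thresholded summit became 7 at pooled q of 0.05 or less and from 3 to 6 with single replicates. Where a count changed, the cause was not tested. No paired analysis was possible because the study has 1 group. The unknown depth limits what a missing region can show.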
